A study of Mus musculus with 8 samples.

Results

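The comparison described here set actinomycin D against no inhibitor in mouse tumour cells dissociated at 4C. It used 4 of the 8 libraries of the series and 221 of its 654 annotated cells. The members were the libraries labelled 4C, with the inhibitor marked yes (A and B) or no (A and B), and within them the cells to which the deposited annotation gives a type. The 2 groups were 4C no inhibitor (59 and 74 cells in A and B) and 4C actinomycin D (34 and 54 cells). All of them came from subcutaneous tumours that 4T1 cells, a mouse mammary carcinoma line, had formed in Balb/c mice after 10 days. Both groups were mixed for 1 h with a protease of Bacillus licheniformis, and the treated tube also held 2 nM actinomycin D. Each condition was 1 suspension, made from a pool of 6 tumour pieces of different mice, and A and B were its 2 aliquots. The counts of the 4 other libraries, dissociated at 37C with or without the drug, entered the model only as further groups and as the comparison for temperature. Since A and B were aliquots, every p-value below measures the spread between aliquots, and the drug cannot be told apart from any other difference between the 2 suspensions.

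Actinomycin D binds DNA and stops transcribing RNA polymerases, that of ribosomal RNA genes most readily. It is added to dissociation buffers because cells that are handled warm switch on immediate-early genes, such as the AP-1 factors Fos and Jun, within minutes. Cold dissociation serves the same purpose by slowing the cells' enzymes, so both measures are in place when the drug is used at 4C.

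The 4C libraries were shallow, and the treated ones shallower. Annotated cells held 52725 and 65149 counts of RNA molecules (UMIs) without the drug, and 23212 and 44339 with it. Median UMIs per cell were 618 and 575 without the drug and 558 and 618.5 with it, so the totals differed mostly through the number of cells. With each cell thinned to 200 UMIs, median genes per cell were 173 and 170 against 172 and 171.5. No annotated barcode was shared between any of these 4 libraries.

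Most markers matched the annotated types. In the 4C libraries, epithelial markers made up 0.545% of the UMIs of tumour cells and 0.0452% of those of T cells, and T-cell markers 1.58% of the UMIs of T cells and 0.0105% of those of tumour cells. The 17 cells annotated as macrophages were mixed. In the untreated library A, 2 of its 8 macrophages held 201 and 71 of the library's 273 UMIs of a list of mast-cell and basophil genes. The list includes the mast-cell proteases Cpa3 and Tpsb2, and these 2 cells held 0 UMIs of Csf1r, C1qa and Lyz2. In the untreated library B, 1 macrophage and 1 T cell held 60 and 29 of its 89 UMIs of neutrophil genes. The treated libraries held 0 and 8 UMIs of the mast-cell list and 0 and 6 of the neutrophil list. Genes of these lists are therefore given below with the cells that carried them.

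Cell type shares of treated and untreated libraries overlapped at 4C for each of the 4 types. Tumour cells made up 40.7% and 44.6% of the annotated cells without the drug and 41.2% and 27.8% with it. T cells made up 30.5% and 37.8% against 47.1% and 37.0%, natural killer (NK) cells 15.3% and 13.5% against 8.82% and 25.9%, and macrophages 13.6% and 4.05% against 2.94% and 9.26%. Two-sided exact permutation tests gave p = 0.667 for tumour cells, T cells and macrophages and p = 1 for NK cells, where 2 libraries against 2 cannot go below 0.333. At 37C the mean share of T cells was 24.1% without the drug and 9.60% with it, and that of macrophages 16.5% and 26.1%. Intervals at 4C were wide: the tumour share of the treated library B had an exact (Clopper-Pearson) 95% interval of 16.5% to 41.6%, which covers counting error only.

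**Figure D1:**
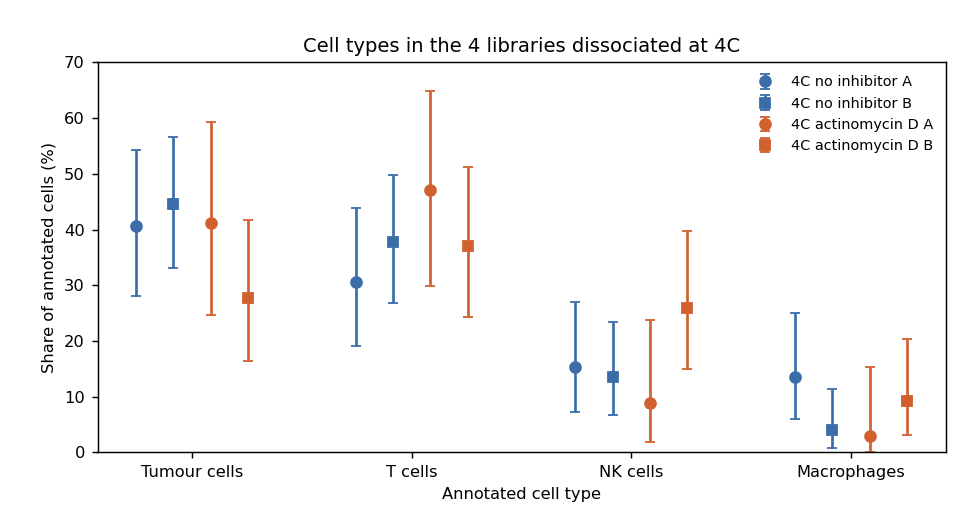
Share of annotated cells (vertical axis, %) of each annotated type in the libraries dissociated at 4C; points are libraries (circles A, squares B), bars exact 95% binomial intervals. Treated and untreated points interleave in each type, and macrophages, with 1 to 8 cells a library, have the fewest cells.

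Expression was compared on the counts summed over annotated cells, with 3391 genes that passed a filter on low counts. In edgeR's quasi-likelihood test with Benjamini-Hochberg adjustment, 0 genes (0%) had an adjusted p under 0.05 at 4C. An unadjusted p under 0.05 was reached by 172 genes (5.07%), 66 higher (1.95%) and 106 lower (3.13%) with the drug. DESeq2's Wald test also called 0 genes, with 74 at an unadjusted p under 0.05. The lowest adjusted p was 0.175, for Arg1. The median log2 fold change of all 3391 genes was -0.06. In the same model 41 genes (1.21%) were called for the drug at 37C, 36 of them lower (1.06%). All genes named below as differing at 4C are therefore values, not changes, unless a test is stated to have called them.

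The absence of calls came with limited precision. The median standard error of a log2 fold change was 0.71, against 0.43 at 37C. The 95% interval lay within a 2-fold change for 216 of the 3391 genes, and within a 4-fold change for 1770. Among the 199 genes with at least 100 counts over the 4 libraries, the median absolute log2 fold change was 0.25, the intervals of 197 lay within a 4-fold change, and 2 had an absolute log2 fold change over 1. Thinned to 1 depth, aliquots of 1 suspension differed from each other by as much as libraries of different suspensions did: chi-square per degree of freedom was 1.65 between the untreated and 1.52 between the treated aliquots, and 1.44 to 1.64 between treated and untreated libraries.

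**Figure D2:**
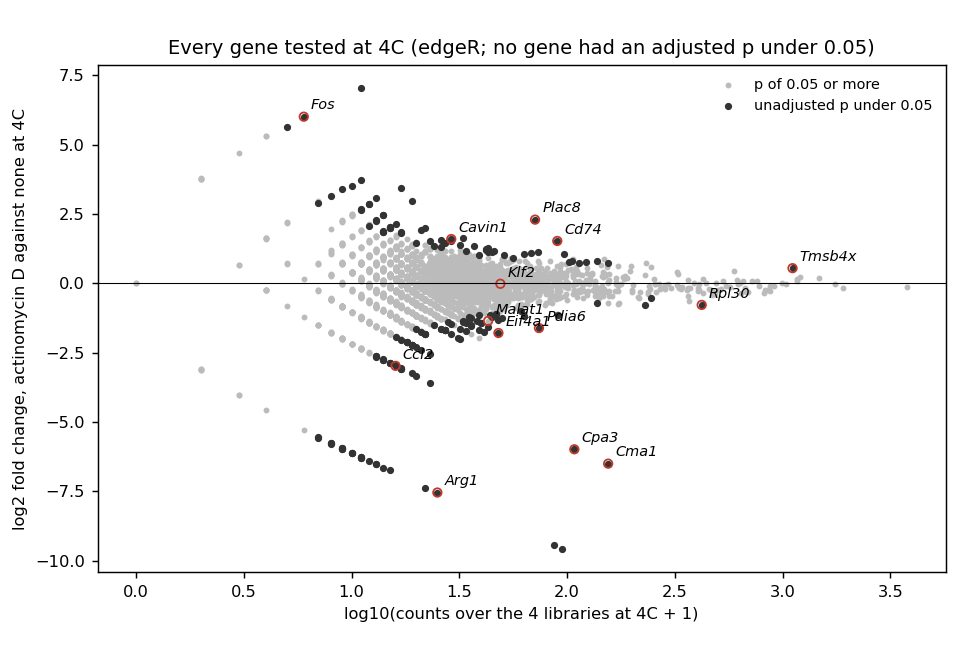
Every gene tested at 4C by its counts over the 4 libraries (horizontal axis, log10 of counts + 1) and its fitted log2 fold change with actinomycin D (vertical axis); dark points had an unadjusted p under 0.05 and circled genes are named in the text. Fold changes narrow as counts grow, and the extreme ones, such as that of Arg1, belong to genes with no or few counts in 1 group.

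Among the 10 genes with the smallest p in the higher direction, the clearest was Plac8 (chromosome 5, 100553725 to 100572245, minus strand, GRCm38), a gene of myeloid and lymphoid cells. It had 10 and 7 counts without the drug and 12 and 41 with it, or 149 ± 58.1 and 721 ± 288 CPM (counts relative to the library's total; mean ± SD, n = 2 aliquots each). Both treated libraries lay above both untreated ones. The log2 fold change was 2.30 ± 0.54 (SE, adjusted p = 0.391). In the treated libraries 9 of 12 and 26 of 41 of its counts came from cells annotated as macrophages, 1 cell in A and 3 cells in B. Over all barcodes of the libraries, annotated or not, Plac8 was called higher with the drug. It was 162 and 226 CPM without the drug and 449 and 679 with it (log2 fold change 1.56 ± 0.30, adjusted p = 0.0357 by edgeR).

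Cd74, the invariant chain of antigen-presenting MHC class II molecules, had 10 and 24 counts without the drug and 28 and 27 with it (log2 fold change 1.53 ± 0.40, adjusted p = 0.828). Tumour cells carried 9 and 22 of these counts without the drug and 18 and 16 with it, and macrophages 1 and 1 against 10 and 9. Of the 6 tested genes of the MHC class II list, 5 had a positive log2 fold change (median 0.64), as had 46.2% of all tested genes (median -0.06). H2-Aa, an MHC class II chain, was the exception at -0.60 ± 0.70. In tumour cells 2 of 5 tested genes of the list were positive (median -0.42). Macrophages held 7 and 2 UMIs of the list without the drug and 19 and 18 with it, and their part in the values of the whole list was not tested.

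A pair of the 10 genes belongs to lymphocytes. Il2rg, the common gamma chain of interleukin receptors, had 12 and 17 counts without the drug and 11 and 27 with it, which are 228 and 261 against 474 and 609 CPM (log2 fold change 1.10 ± 0.42, adjusted p = 0.913). Gimap4, a lymphocyte GTPase, had 247 and 276 CPM without the drug and 517 and 654 with it (log2 fold change 1.12 ± 0.42, adjusted p = 0.913). Of the 29 Gimap4 counts in the treated library B, 20 came from NK cells, which made up 25.9% of that library.

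Others were Cavin1 (a caveola protein), Eif4ebp1 (an inhibitor of cap-dependent translation), and Tmed9, Tram1 and Saraf, proteins of the endoplasmic reticulum and its transport. Their log2 fold changes were 1.23 to 1.64 and their adjusted p was 0.913. For each of them both treated libraries lay above both untreated ones, a pattern that 548 of the 3391 genes (16.2%) showed in the higher direction. Their counts were low: Saraf had 4 and 5 without the drug and 6 and 10 with it.

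In the lower direction, Arg1 (chromosome 10, 24915221 to 24927484, minus strand, GRCm38), the arginase of tumour macrophages, had the smallest p of all genes. It had 16 and 8 counts without the drug and 0 in both treated libraries, at least 4.58-fold lower against a floor of 3 counts over the group (adjusted p = 0.175). The untreated counts came from few cells: all 16 in library A lay in 3 macrophages, while those in B lay in tumour cells (5) and T cells (3). Over all barcodes, with 33 and 42 counts against 5 and 8, it was 255 and 226 CPM without the drug and 89.8 and 86.2 with it (log2 fold change -1.44 ± 0.40, adjusted p = 0.482).

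Pdia6, a disulphide isomerase of the endoplasmic reticulum (chromosome 12, 17266545 to 17284770, plus strand, GRCm38), had 29 and 32 counts without the drug and 4 and 8 with it. That is 521 ± 41.6 against 176 ± 5.73 CPM, with no overlap between the groups (log2 fold change -1.61 ± 0.44, adjusted p = 0.901). Eif4a1, the RNA helicase of translation initiation, had 24 and 16 counts against 2 and 5 (log2 fold change -1.79 ± 0.54, adjusted p = 0.913). Rpl30, a protein of the large ribosomal subunit, had the most counts of the 10 genes named in this direction, with 122 and 187 counts against 31 and 80 (log2 fold change -0.77 ± 0.25, adjusted p = 0.913). Most counts of these genes came from tumour cells, 22 and 29 of the Pdia6 counts without the drug among them.

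Ndufa10 (respiratory complex I) and Vars (valyl-tRNA synthetase) had log2 fold changes of -1.72 ± 0.60 and -1.56 ± 0.55. Agpat5, an enzyme of phospholipid synthesis, had 16 and 11 counts against 2 and 2, and Ptprk, a receptor tyrosine phosphatase, 9 and 9 against 1 and 1. For Ptprk the ratio of counts was 5.16-fold lower, with a counting interval of 1.23 to 45.8. The adjusted p of these genes was 0.913. Both untreated libraries lay above both treated ones for 623 of the 3391 genes (18.4%), and for 9 of the 10 genes named in this direction, the exception being Cma1.

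The last of the 10, Cpa3 and Cma1, a mast-cell protease outside the list above, were carried by a single library. Cma1 had 151, 2, 1 and 0 counts and Cpa3 104, 2, 0 and 1 in the order untreated A, untreated B, treated A, treated B, and nearly all lay in the 2 cells of library A described above. Their adjusted p was 0.913.

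**Figure D3:**
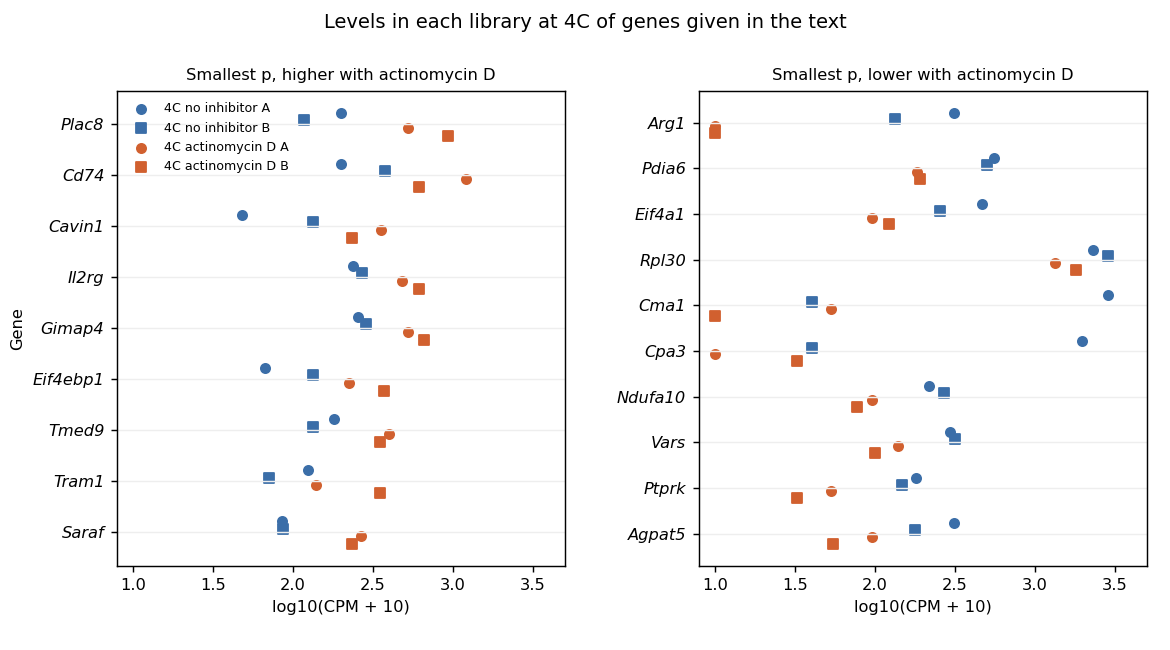
Level in each library of 19 of the genes with the smallest p (9 higher, 10 lower) at 4C, as log10(CPM + 10) on the horizontal axis; blue points are untreated and orange treated libraries, circles A and squares B. For Arg1 both treated libraries sit at 0 CPM, and for Cma1 and Cpa3 the untreated library A stands alone.

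The immediate-early genes, which the drug is added to suppress, were not lower with it at 4C. Summed over the 34 genes of the list they made up 0.258% and 0.239% of UMIs without the drug and 0.297% and 0.300% with it (two-sided exact permutation p = 0.333, the smallest possible). At 37C the means were 0.815% without the drug and 0.300% with it. Of the 27 genes tested at 4C, 0 were called by edgeR in either direction, 1 reached an unadjusted p under 0.05 (Fos), and the median log2 fold change was 0.06. At 37C, 11 of the same 27 genes fell with the drug, as did 1.06% of all genes.

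Fos was the 1 gene of the list with a small p. It had 0 and 0 counts without the drug and 2 and 3 with it, at least 2.91-fold higher against the floor (unadjusted p = 0.00576, adjusted p = 0.913). Over all barcodes Fos had 5 and 13 counts against 5 and 9 (log2 fold change 0.73 ± 0.51, adjusted p = 0.807). Jun had 2 and 3 counts against 0 and 4. Junb, a further AP-1 gene, had 9 and 31 counts against 14 and 19 (log2 fold change 0.52 ± 0.49, adjusted p = 0.951), with overlapping groups. Jund, the AP-1 member expressed at rest, had 9 and 7 against 4 and 16 (log2 fold change 1.01 ± 0.51, unadjusted p = 0.0594).

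Among the regulators that answer activation, Klf2, a factor that keeps lymphocytes quiescent, had 12 and 18 counts without the drug and 5 and 13 with it (log2 fold change -0.01 ± 0.44). Its 95% interval at 4C was -0.93 to 0.91, which leaves out the fall by 1.65 on the log2 scale measured at 37C (adjusted p = 0.00502). Nfkbia, the inhibitor of NF-kB that NF-kB itself induces, had 8 and 18 counts against 4 and 12, with an interval of -0.97 to 1.02. At 37C it fell by 1.88 (adjusted p = 0.00265), again outside that interval. Ier3 had 8 and 6 counts against 7 and 5 (log2 fold change 0.54 ± 0.67), and Ier2 5 and 8 against 4 and 4 (0.06 ± 0.67). Dusp1, a phosphatase of stress kinases, had 5 and 4 counts against 1 and 1, and Zfp36, which speeds decay of cytokine mRNAs, 2 and 8 against 5 and 2. Egr1, Atf3 and Nr4a1 had 1, 2 and 1 counts over both untreated libraries and 3, 1 and 0 over both treated ones, too few for a fold change. For Klf2 and Nfkbia the interval at 4C thus left out the estimate at 37C, without regard to the error of that estimate. The direct edgeR test of the difference between temperatures gave an adjusted p of 0.417 for Klf2 and 0.370 for Nfkbia. For Fos, Egr1, Atf3 and Nr4a1 a suppression was not detectable at this depth.

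**Figure D4:**
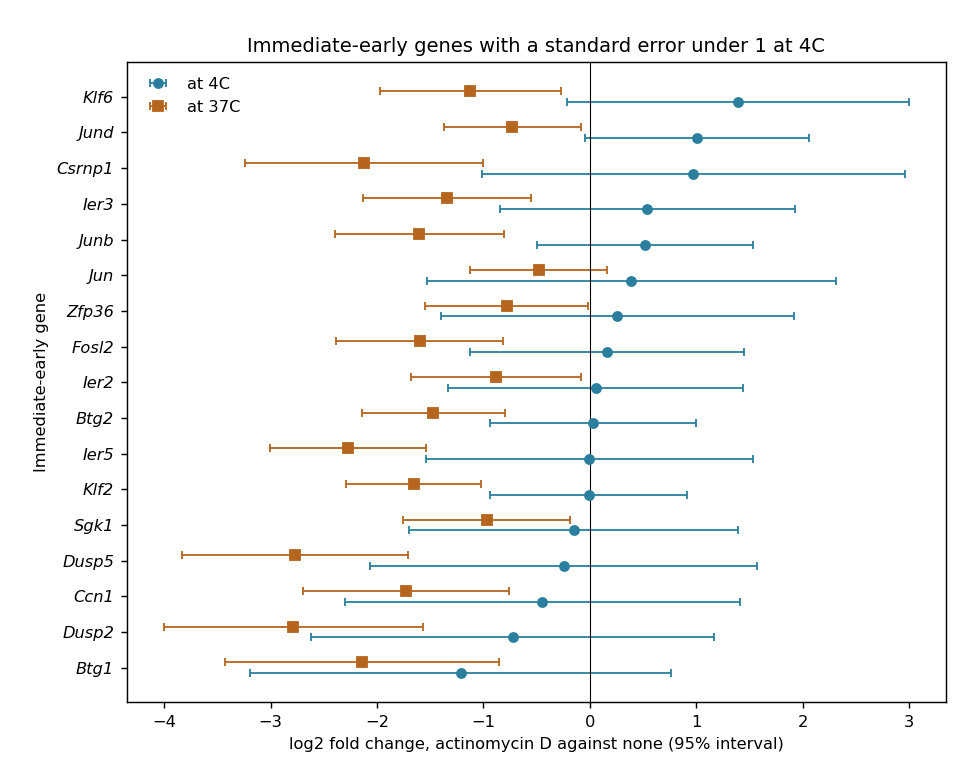
Log2 fold change with actinomycin D (horizontal axis) at 4C (circles) and 37C (squares), with 95% intervals of the edgeR fit, for the 17 immediate-early genes whose standard error at 4C was under 1. In each of the 17 the estimate at 37C lies below that at 4C, and in 5 the intervals do not meet. Of all 27 tested genes of the list 3, less precise and not drawn (Dusp1, Nr4a1 and Gadd45b), had the lower estimate at 4C.

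Within single types the picture of the list was mixed. In tumour cells it took 0.223% and 0.176% of UMIs without the drug and 0.261% and 0.246% with it. T cells gave the opposite order, with 0.380% and 0.427% against 0.248% and 0.341%, from 44, 55, 14 and 33 counts. In NK cells the values were 0.230% and 0.235% against 0.377% and 0.377%. These summed levels were given as values, since an exact permutation test of 2 libraries against 2 cannot go below p = 0.333.

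Secreted inflammatory factors were scarce. Ccl2, a monocyte chemokine, had 9 and 5 counts without the drug and 1 and 0 with it, 8.02-fold lower as a ratio of counts with a counting interval of 1.22 to 339 (adjusted p = 0.913), and 12 of its 14 untreated counts lay in tumour cells. Il1b had 0 and 4 counts against 1 and 3. Over the 18 tested genes of the inflammatory NF-kB list, 0 were called, 1 had an unadjusted p under 0.05 (Ccl2), and the median log2 fold change was 0.01.

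Nuclear-retained RNAs gave no call either. Neat1 had 22 and 27 counts without the drug and 13 and 15 with it (log2 fold change -0.03 ± 0.38, interval -0.83 to 0.76). Malat1 had 20 and 14 against 3 and 5 (-1.35 ± 0.78, unadjusted p = 0.0987), and 11 of the 20 in untreated library A came from macrophages. Apoe, a macrophage lipoprotein, had 16 and 4 counts against 8 and 3. For heat shock genes the counts were too few for Hspa1a (0 in all 4 libraries), and Hspa1b had 1 and 2 against 1 and 4. The heat shock list as a whole made up 0.338% and 0.333% of UMIs against 0.302% and 0.235%. Of its 9 tested genes 2 were positive and 7 negative, where 46.2% of all genes were positive. Of the cold-inducible genes, Cirbp had 4 and 7 counts against 1 and 5, and Rbm3 2 and 2 against 0 and 3.

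Genes of ribosome production gave no call, and more of them were negative than positive, where 46.2% of all tested genes were positive. The ribosome biogenesis list, which includes the nucleolar proteins Ncl and Npm1 and subunits of RNA polymerase I, made up 0.457% and 0.471% of UMIs without the drug and 0.349% and 0.401% with it. Of its 18 tested genes 13 were negative, 0 were called, and 1, the nucleolar Nolc1 (11 and 5 counts against 1 and 1), had an unadjusted p under 0.05. The median log2 fold change was -0.35, beside -0.06 for all genes. In tumour cells 5 of 10 tested genes of the list were positive (median 0.016), and its share of their UMIs overlapped, with 0.555% and 0.538% against 0.414% and 0.544%. Of 77 ribosomal protein genes 64 were negative, with a median of -0.23. An unadjusted p under 0.05 was reached by 3, all lower, with Rpl30 among them, where 3.13% of all genes were. The summed share of the ribosomal protein genes was 14.6% and 16.9% against 14.4% and 15.0%, and the groups overlapped. Among targets of p53, a factor that actinomycin D is known to activate, Mdm2 had 5 and 7 counts against 0 and 2, and Cdkn1a 13 and 0 against 2 and 1. Of the 6 tested genes of the p53 list 2 were positive and 0 had an unadjusted p under 0.05. The list's share of UMIs overlapped, with 0.140% and 0.126% against 0.108% and 0.135%.

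Over all annotated cells, actin and lymphocyte genes leaned the other way. The actin cytoskeleton list made up 2.48% and 2.66% of UMIs without the drug and 2.98% and 3.44% with it. Among its 25 tested genes 17 were positive (median 0.19), where 46.2% of all genes were. An unadjusted p under 0.05 was reached by 2 (Tmsb4x and Arpc1b), both higher, where 1.95% of all genes were. Of the 25 genes 0 were called, and 9 had both treated libraries above both untreated ones against a background of 16.2%. Tmsb4x, thymosin beta 4, which binds monomeric actin, had 206 and 377 counts against 146 and 381 (log2 fold change 0.55 ± 0.23). In tumour cells 9 of 20 tested genes of the actin list were positive (median -0.09, beside -0.08 for all genes tested there). The list's share of tumour-cell UMIs was 1.91% and 2.11% against 2.26% and 2.20%. The T-cell markers were 0.321% and 0.402% against 0.418% and 0.562%, with 14 of 18 positive and a median of 0.40. Lymphocyte homing genes had 12 of 15 positive and a median of 0.55. The mean share of T cells was 34.2% without and 42.0% with the drug, and the part of this in either list was not tested.

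The small p-values of interferon and macrophage genes lay in the lower direction. Of 20 tested interferon-induced genes 4 had an unadjusted p under 0.05, all lower (Rsad2, Rtp4, Isg15 and Gbp2), where 3.13% of all genes were, and the list's median was -0.11. Rtp4 had 11 and 13 counts against 2 and 2, and Gbp2, a guanylate-binding GTPase, 17 and 19 against 5 and 5. The summed list was 0.658% and 0.663% of UMIs without the drug and 0.724% and 0.530% with it. Of 18 macrophage markers 4 had an unadjusted p under 0.05, all lower (Arg1, C1qa, C1qb and C1qc), against the same 3.13% of all genes. The complement genes C1qa, C1qb and C1qc had 7, 10 and 8 counts in untreated library A and 0 in the 3 other libraries. That library also had the most cells annotated as macrophages, 8 against 3, 1 and 5. Of these, 6 against 2, 1 and 3 held a UMI of any of 14 macrophage genes. The 7 C1qa counts lay in 2 cells.

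Tumour cells alone, 57 untreated and 29 treated, gave 0 calls among 1756 genes by edgeR, with 90 (5.13%) at an unadjusted p under 0.05, and 0 by DESeq2, with 41. Higher with the drug were Cavin1 (2 and 7 counts against 8 and 10, log2 fold change 1.88 ± 0.63, adjusted p = 0.773), Tmed9 (5 and 5 against 8 and 11), Eif4ebp1, the initiation factor Eif3b and the chloride channel protein Clic4, the last with overlapping groups. Lower were Ergic3, a protein of transport between endoplasmic reticulum and Golgi, Rpl30, Pdia6, the interferon-induced GTPase Ifi47 and Atp5h of the ATP synthase. Ergic3 had 15 and 14 counts against 1 and 1, a 7.40-fold lower ratio with a counting interval of 1.87 to 64.0. Pdia6 had 22 and 29 against 3 and 5, or 685 ± 65.4 against 206 ± 8.39 CPM (log2 fold change -1.79 ± 0.53, adjusted p = 0.548). Ifi47 had 24 and 26 against 6 and 2 (-1.75 ± 0.56, adjusted p = 0.773), and the whole interferon list took 0.795% and 0.729% of tumour-cell UMIs without the drug and 0.562% and 0.361% with it. Other types did not share this order. The list took 0.536% and 0.605% against 0.831% and 0.765% in T cells, and 0.211% and 0.217% against 0.151% and 0.283% in NK cells. In cells annotated as macrophages, 8 and 3 against 1 and 5, it took 0.597% and 0.811% against 2.76% and 1.97%. Of these cells, 2 and 2 against 0 and 1 held more UMIs of the mast-cell list than of 14 macrophage genes. The values of this type therefore come from a mixed group and, in treated library A, from 1 cell. The lowest adjusted p in tumour cells, 0.0842, was that of Mgst3, a glutathione transferase of membranes named after its values were seen: it had 1 and 0 counts against 4 and 10.

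T cells, 46 untreated and 36 treated, allowed 230 genes to be tested, of which 0 were called by edgeR, with 14 (6.09%) at an unadjusted p under 0.05, and 0 by DESeq2, with 7. S100a4, a calcium-binding protein of activated and memory T cells, had the smallest p, with 2 and 4 counts against 6 and 12 (log2 fold change 2.11 ± 0.58, adjusted p = 0.484). Tmsb4x had 111 and 161 against 88 and 191 (0.58 ± 0.19, adjusted p = 0.679), or 11042 ± 2056 against 17658 ± 2969 CPM without overlap. The intermediate filament Vim, Rps3 and the actin-severing Cfl1 followed. Lower were the costimulatory receptors Icos (11 and 10 counts against 1 and 4) and Tnfrsf18 (14 and 18 against 3 and 6, -1.26 ± 0.49), and the ribosomal proteins Rps23 and Rps2, at an adjusted p of 0.679. The actin list took 3.58% and 3.48% of T-cell UMIs without the drug and 4.46% and 4.76% with it. NK cells and macrophages fell below 10 cells in a library and were not tested.

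Whether the drug acted differently at 4C than at 37C was tested as the interaction in the same model. On annotated cells 0 of 3391 genes were called by edgeR, with 250 (7.37%) at an unadjusted p under 0.05, and DESeq2 called 0, with 106. The lowest adjusted p was 0.0663, for Arg1. Of the 27 immediate-early genes, 12 had an unadjusted p under 0.05 in the direction of a smaller fall or a rise at 4C, where that direction held 3.86% of all genes. For Junb the difference was 2.12 ± 0.62 on the log2 scale, for Klf2 1.64 ± 0.54 and for Nfkbia 1.91 ± 0.58. Smallest in p were the T-cell gene Cd8b1 (4.80 ± 1.12), the NF-kB inhibitor Tnfaip3 (3.42 ± 0.83), Ms4a4b, Trbc2 and H2-Q7 in 1 direction, and Arg1, Pdia6, ceruloplasmin (Cp), Ccl8 and Rpl30 in the other.

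The comparison at 4C was also made over all barcodes, annotated or not. Depth rose to 129580 and 186002 UMIs without the drug and 55698 and 92784 with it at 4C. Annotated cells held 35.0% to 47.8% of these, and the rest came from barcodes with no annotation, where cells and free RNA cannot be told apart. At this depth 2 of 7515 genes (0.0266%) were called higher with the drug at 4C by edgeR and by DESeq2: Plac8, given above, and Ccl5. Ccl5, a chemokine of NK and T cells (chromosome 11, 83525778 to 83530518, minus strand, GRCm38), was 1073 and 1139.8 CPM without the drug and 2621 and 2641 with it (log2 fold change 1.25 ± 0.20, adjusted p = 0.00302). In annotated cells alone its counts were 64 and 44 against 16 and 108, and the groups overlapped. The call of Ccl5 was lost without treated library B, which left 0 genes called. That of Plac8 was lost without treated library B, without untreated library A and in the unannotated barcodes alone.

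The interaction over all barcodes, chosen after the data were seen, called 87 genes (1.16%), 74 (0.985%) in the direction of a more positive effect at 4C. The 66 of these 74 that were called at 37C all fell there, as did 2.59% of all genes. The 74 had a median log2 fold change of -1.58 at 37C and 0.68 at 4C. Since the 74 were selected by this difference, their directions and medians follow in part from the selection. Tnfaip3 was 224 and 156 CPM without the drug and 305 and 216 with it at 4C, and 291 and 300.1 against 41.2 and 37.0 at 37C (interaction 3.30 ± 0.43, adjusted p = 5.07e-05). Klf2 differed by 2.19 ± 0.35 (adjusted p = 0.00136), Vps37b, which serves sorting into endosomes, by 2.46 ± 0.42 (adjusted p = 0.00153) and the phosphatase Dusp5 by 3.48 ± 0.61 (adjusted p = 0.00161). The immediate-early list held 10 of the 74. Lymphocyte genes were also among them, 6 of 18 T-cell markers (Cd3d, Cd4, Trbc1, Trbc2, Lck and Cd28) and 2 NK markers (Klrd1 and Gzma), beside the lower T-cell share with the drug at 37C given above, and the part of cell types in these calls was not tested. The 13 genes (0.173%) in the other direction included Arg1, Lyz2, Cp, Ccl8 and Ifi44: Lyz2, the lysozyme of myeloid cells, was 517 and 538 against 341 and 334 CPM at 4C, and 1415 and 651 against 2225 and 1849 at 37C. Without treated library A the 87 calls became 33, and without treated library B 15.

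**Figure D5:**
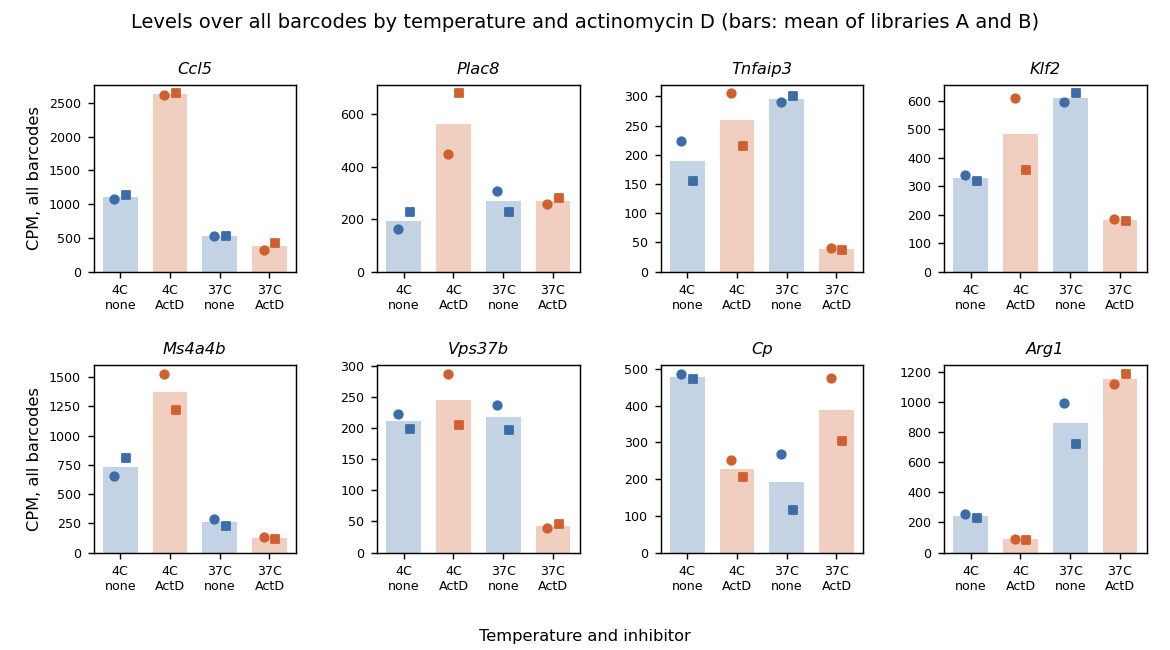
CPM over all barcodes (vertical axis, from 0) of 8 genes called at 4C or in the interaction, by temperature and drug; bars are means of the 2 aliquots, circles A and squares B. Ccl5 and Plac8 stand higher with the drug at 4C, Tnfaip3, Klf2 and Vps37b are low with the drug at 37C and not at 4C, and Arg1 and Cp are lower with the drug at 4C and higher with it at 37C.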

How the data were processed

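Single cells were captured by droplets on the ddSEQ instrument, per the labels. The authors deposited, per library, raw counts (UMIs per gene and barcode, not normalised) and an annotation of 654 cells into 4 types. Per the submitters' processing notes, the build was GRCm38 and the tools were Seurat, featureCounts 1.6.0, STAR 2.7.1a, SAMtools and UMI-tools. Not given in the sources used here are their settings, the cell filters and the treatment of doublets. Symbols were found for 17520 of 17580 identifiers. Counts were summed over annotated cells per library and fitted in 1 model of 4 groups and 8 libraries with edgeR 4.0.16 (filterByExpr, TMM, glmQLFit and glmQLFTest, two-sided) under R 4.3.3, adjusted by Benjamini-Hochberg over all tested genes. Tumour and T cells, which had 10 or more cells in each library, were fitted in the same way. CPM were computed from these sums. DESeq2 1.42.0, limma 3.58.1, other filters, left-out libraries, a replicate block and other cell sets were alternatives. The script was tested on simulated data. Shares and list levels had exact permutation tests (SciPy 1.17.1). Named genes were the called genes of largest change or, since none were called, the 10 smallest p in each direction (5 within a type and in the interaction) with at least 20 counts at 4C, without predicted genes, plus a list named whatever their call. The comparison, the 33 gene lists and the rule were chosen with earlier results of these data known. Coordinates are from GENCODE (GRCm38). The single-gene values of some genes that the rule takes are not reported here.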

Additional observations from a re-analysis of the deposited data

Results flagged for a closer look

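Over all barcodes, 87 genes differed in their actinomycin D effect between 4C and 37C by a test of the difference itself (edgeR's interaction contrast, adjusted p under 0.05). In the barcodes that carry no annotation, outside the cells compared above, Ccl5 was higher with actinomycin D at 4C than without it, with a log2 fold change of 1.44 (edgeR, adjusted p = 0.0129).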

How the results depend on the processing

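The count of 0 genes called at 4C depended on the filter and on single libraries. It was 11 with no filter and 11 with at least 10 counts. There mast-cell, basophil and neutrophil genes (such as Cpa3, Cma1 and S100a8) and Klk1 joined Arg1 and Plac8. Klk1 was higher with the drug, with 18 counts in treated library B, 14 of them in 1 cell, and 0 in the other libraries at 4C. The count of genes called was 1 (Plac8) in the 4C libraries alone, 2 (Arg1 and Plac8) at the same cell type composition and 2 over all barcodes. Leaving out each 4C library gave 0 to 12, with 3 without untreated A, 12 without untreated B and 0 without either treated library. For the interaction (0) the values were 14 with no filter, 15 with at least 10 counts and, as an alternative chosen after seeing the data, 87 over all barcodes, and 0 to 17 with libraries left out (1 without untreated A, 17 without untreated B). Within T cells leaving out libraries gave 0 to 1 (Ccl4, without untreated B), and within tumour cells 0 in each alternative. The cause of these shifts was not tested.

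With a replicate block of the letters, 5 genes were called at 4C (Cpa3, Arg1, Cma1, Tpsab1 and Tpsb2) and 2 in the interaction. Correlations of A minus B between groups were -0.03 to 0.09, but 0.24 between the 2 groups at 37C. UMIs of the mast-cell and basophil list in A and B were 273 and 14 in 4C no inhibitor and 0 and 8 in 4C actinomycin D. At 37C they were 432 and 62 without the drug and 358 and 16 with it. Whether A and B shared a difference across conditions was not tested.

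The further alternatives over all barcodes were also chosen after seeing the data. The 2 calls at 4C became 0 to 13 with libraries left out (11 without untreated A, 13 without untreated B, 3 without treated A, 0 without treated B) and 1 (Ccl5) in unannotated barcodes. Plac8 was not among the 11, and both Plac8 and Ccl5 were among the 13 and the 3. The 87 interaction calls became 49 by DESeq2, 52 in unannotated barcodes, and 15 to 125 with libraries left out. The difference in the immediate-early list's summed level (0.0499 percentage points, treated minus untreated) became 0.0665 over all barcodes. There the groups overlapped, with 0.324% and 0.283% of UMIs without the drug and 0.427% and 0.313% with it.

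Signs turned for 8 named genes, which were called in none of these alternatives. The log2 fold change of Klf2 (-0.01) became 0.040 with DESeq2 size factors, 0.036 by DESeq2's test, 0.046 in the 4C libraries alone and 0.50 over all barcodes, and that of Neat1 (-0.03) became 0.020 with DESeq2 size factors, 0.036 by DESeq2's test, 0.016 in the 4C libraries alone and 0.086 without macrophages. With no filter and with at least 10 counts, Ier2 (0.06) became -0.038 and -0.063, and Nfkbia (0.03) became -0.068 and -0.089. Nfkbia was -0.16 with libraries thinned to 1 depth, and Apoe (-0.08) was 0.61 there and 0.64 at the same composition. With each 4C library left out, the log2 fold changes spanned -0.45 to 0.12 for Klf2, -0.39 to 0.21 for Neat1, -0.38 to 0.42 for Ier2, -0.56 to 0.52 for Nfkbia, -1.43 to 1.27 for Apoe, -0.12 to 1.43 for Junb, -0.17 to 1.11 for Ier3, and -0.0035 to 2.24 for Clic4 in tumour cells. The cause was not tested.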
